A study of Mus musculus with 6 samples.

Results

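The 10 genes described here encode the spindle checkpoint proteins Mad2l1, Bub1, Bub1b, Bub3 and Ttk, the activators Cdc20 and Fzr1 of the anaphase-promoting complex (APC/C), the securin Pttg1 and the Aurora kinases Aurka and Aurkb. They were taken by symbol from a count table of mouse embryo RNA. All 10 have a row among 18649 rows with a gene symbol, and all 10 passed the filter on low counts that left 12582 genes for testing. The embryos were at the 2-cell stage, and poly(A) RNA was sequenced. The arsenite group (3 libraries) came from embryos whose culture medium, G1-PLUS, held sodium arsenite, a salt of trivalent arsenic, at 5 µM, and the control group (3 libraries) is labelled 0 µM. Mouse strain, exposure time and the number of embryos per library are not given in the labels. Nor do the labels say whether replicates come from separate cultures. Each p-value therefore reflects library-to-library spread alone, and that spread may be technical.

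The spindle checkpoint delays anaphase until every chromosome is attached to spindle microtubules. At an unattached kinetochore the kinase Ttk (also called MPS1) marks the scaffold Knl1, Bub3 brings Bub1 and Bub1b (BubR1) to it, and Mad2l1 (MAD2) is loaded onto Cdc20. The resulting complex of Mad2l1, Bub1b and Bub3 with Cdc20 holds back the APC/C, a ubiquitin ligase that uses Cdc20 at anaphase and Fzr1 (CDH1) later in mitosis and in G1. Its targets include securin, which restrains the protease separase, and the B cyclins. Aurkb, the kinase of the chromosomal passenger complex, corrects faulty attachments, and Aurka acts at centrosomes and spindle poles. Mouse oocytes store transcripts of many of these genes for meiosis, and the embryo later makes its own.

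Library totals lay between 7758507 and 8391579 counts with arsenite and between 7830516 and 8519265 counts in controls, so a count of 3 in a library corresponded to 0.352 to 0.387 CPM (a count relative to library size, scaled by TMM in all values below). All 15 markers listed for oocytes and 2-cell embryos had counts, with a summed level of 4468 to 14931 CPM with arsenite and 6782 to 11209 CPM in controls. Dppa3 was the largest part of that sum, at 1999 to 10576 CPM with arsenite and 5460 to 9950 CPM in controls. By edgeR 7 of the 15 rose and 0 fell, against 9.43% and 7.26% of all tested genes. Of 12 cumulus and granulosa markers 9 were in the table, with a summed level of 26.6 to 46.0 CPM with arsenite and 37.3 to 40.2 CPM in controls. Of 4 tested cumulus markers 1 rose, Cyp11a1, with 2.03 to 3.36 CPM with arsenite and no count in controls. Has2 and Inhba had no count with arsenite and at most 3 and 2 counts in a control library, so both were near 0 in both groups. Vcan had none in controls and 0, 7 and 21 counts with arsenite. Amhr2 made up most of the cumulus sum, with 20.9 to 33.5 CPM with arsenite and 32.6 to 36.1 CPM in controls. Of 10 blood, stromal and epithelial markers 5 were in the table, and Epcam made up most of their summed 144 to 321 CPM with arsenite and 316 to 415 CPM in controls. The part of other cells in the results below was not tested. In such bulk libraries less RNA per cell and fewer cells of a kind cannot be told apart.

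Among the 10 genes, Mad2l1, Bub1 and Ttk rose with arsenite, each to slightly more than double its control level. The 3 arsenite libraries lay above the 3 controls for these genes. Cdc20, Bub3 and Aurka had lower mean levels with arsenite and did not pass the test without a covariate, but fell in the fit that takes the replicate number as a block. Fzr1, Bub1b, Aurkb and Pttg1 did not pass in either fit. By edgeR's quasi-likelihood test at a Benjamini-Hochberg adjusted p under 0.05 over all tested genes, 3 members rose and 0 fell, against 9.43% of all tested genes higher and 7.26% lower. DESeq2 called 1 member lower (Bub3) and limma voom 0, against 12.5% and 8.63% of all tested genes lower by these tools. With the block 3 rose and 3 fell, against 13.4% and 12.6% of all genes. Deviations from group means correlated positively but weakly for libraries with the same replicate number, at 0.178 to 0.221. That check, given under processing, is itself weak with 3 libraries in each group. Both fits are therefore given. The arsenite libraries lay wholly above the controls for 3 members and wholly below for 1 (Bub3), against 21.9% and 19.7% of all tested genes. The median log2 fold change of the 10 genes was 0.00, against 0.07 for all tested genes. With a trend on the length of all annotated exons and on GC content removed, 1115 genes were called higher and 1442 lower over the table. The fit without that correction called 1187 and 914. With the trend removed 2 members rose (Mad2l1 and Ttk) and 1 fell (Bub3), against 8.86% and 11.5% of all tested genes.

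**Figure D1:**
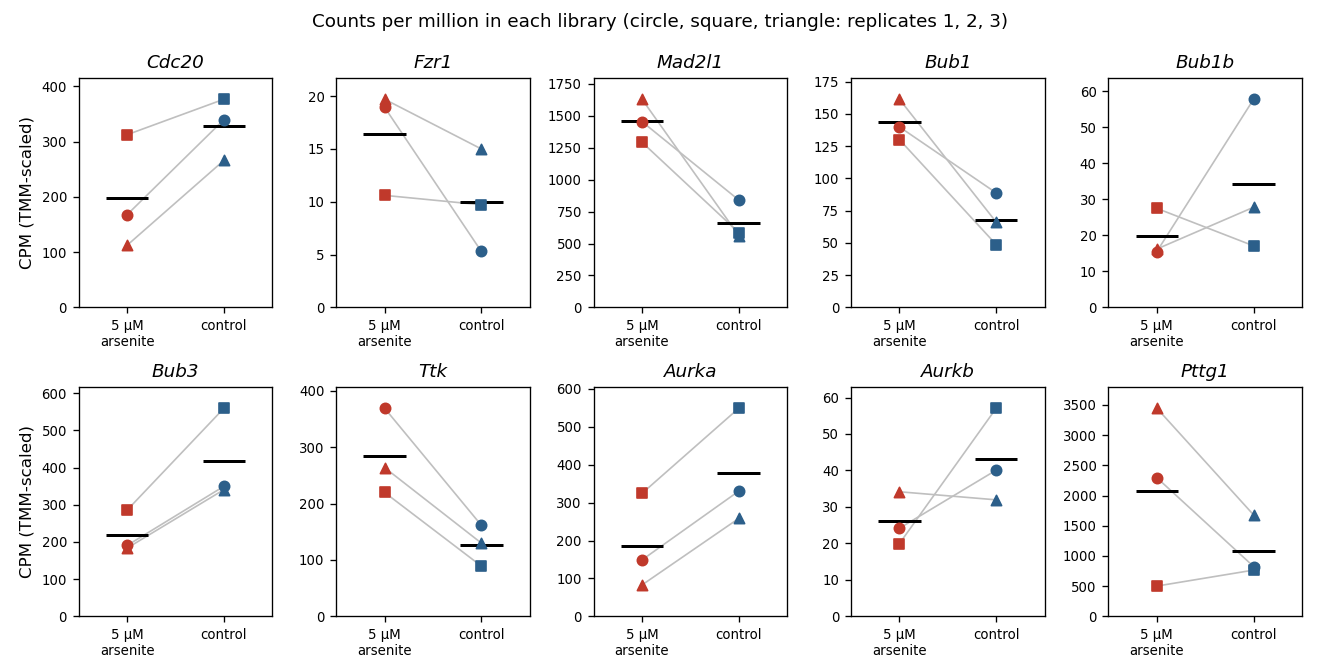
Level of each of the 10 genes in every library, in CPM scaled by TMM, with arsenite left and control right. Points are libraries, grey lines join libraries with the same replicate number and black bars are group means. Mad2l1, Bub1 and Ttk show arsenite libraries above all controls, and for Cdc20, Aurka and Bub3 each grey line is lower at the arsenite end.

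The higher calls depended on single libraries, while the log2 fold changes stayed between 0.96 and 1.31 for Mad2l1, 0.89 and 1.29 for Bub1, and 0.90 and 1.35 for Ttk over the 6 fits that each left out a library. Without arsenite replicate 1, arsenite replicate 3, control replicate 2 or control replicate 3 none of the members was called higher, and without control replicate 1 only Mad2l1 was. Calls became fewer over the whole table too: 2.44%, 6.42%, 4.70% and 1.62% of all tested genes were higher in the first 4 of these fits, in the order named, and 5.00% without control replicate 1. Without arsenite replicate 2, Mad2l1 and Ttk were called higher and Cdc20, Bub3 and Aurka lower, against 7.08% and 8.16% of all tested genes.

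The promoters of members that moved together are shown first, because genes of mitosis often share a CCAAT box, bound by NF-Y, and a cell cycle genes homology region (CHR), bound by the DREAM and MuvB complexes. RefSeq windows on GRCm38.p6, the assembly behind mm10, were found for 9 of the 10 genes. The letters TTTGAA (CHR) and CCAAT were searched on both strands from 250 bases before to 50 bases after each annotated start. Below, 150 bases from 100 before the start are printed 5′ to 3′ on the gene's strand, with matches in capitals. The first 2 genes rose, and the last 3 fell with the block.
Bub1 (chr2:127831810-127831959, minus strand): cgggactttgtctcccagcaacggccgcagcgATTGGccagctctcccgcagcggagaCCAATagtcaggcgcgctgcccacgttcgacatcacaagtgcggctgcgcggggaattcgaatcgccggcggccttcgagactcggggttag
Ttk (chr9:83834589-83834738, plus strand): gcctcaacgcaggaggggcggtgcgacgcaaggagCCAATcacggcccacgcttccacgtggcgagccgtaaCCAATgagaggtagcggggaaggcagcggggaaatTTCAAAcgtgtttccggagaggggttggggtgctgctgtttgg
Cdc20 (chr4:118437294-118437443, minus strand): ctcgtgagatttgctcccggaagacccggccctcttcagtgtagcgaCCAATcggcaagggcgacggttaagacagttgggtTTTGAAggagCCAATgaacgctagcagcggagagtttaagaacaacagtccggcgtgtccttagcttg
Bub3 (chr7:131560270-131560419, plus strand): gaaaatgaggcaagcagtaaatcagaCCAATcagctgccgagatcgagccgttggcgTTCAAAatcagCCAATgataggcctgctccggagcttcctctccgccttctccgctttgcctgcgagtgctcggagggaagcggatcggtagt
Aurka (chr2:172370521-172370670, minus strand): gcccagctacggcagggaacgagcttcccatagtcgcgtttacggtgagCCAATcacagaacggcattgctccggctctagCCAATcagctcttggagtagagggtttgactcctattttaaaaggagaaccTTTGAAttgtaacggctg

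CCAAT letters were found at 2 places in Bub1, Ttk, Cdc20, Bub3 and Aurka and at 1 in Fzr1 and Bub1b. The RefSeq windows of Mad2l1 (66534971 to 66535270) and Pttg1 (43425932 to 43426231) held neither motif, but they do not span the GENCODE starts at 66535390 and 43426251, so the bases around those starts were not searched. TTTGAA stood in Cdc20, Bub1b, Bub3, Ttk and Aurka. No other form of the CHR was searched, so TTCGAA in the printed Bub1 bases was not counted. Of the 9 members with a window 5 held both motifs, against 6.94% of 32817 promoter windows of all genes. The single motifs were in 17.9% (TTTGAA) and 37.4% (CCAAT) of those windows. These motifs were searched because genes of mitosis often share them, so a share above that of all windows was foreseen. The matches did not divide the genes by direction. Ttk, which rose, held both motifs, as did Cdc20, Bub3 and Aurka, which fell with the block. Bub3 has a second RefSeq start further downstream, and the same matches fall in its window, farther from the start.

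Mad2l1, which binds Cdc20 within the checkpoint complex, lies on chromosome 6 (66535390 to 66547220, GRCm38, GENCODE M21). It had 1454, 1292 and 1629 CPM in arsenite replicates 1, 2 and 3, against 840.0, 586 and 561 CPM in control replicates 1, 2 and 3. The lowest arsenite library stood well above the highest control. The log2 fold change was 1.14 ± 0.29 (SE), a 2.2-fold level with arsenite (edgeR adjusted p = 0.0273, with the block 0.0132). Each of the 3 numbered pairs showed the rise. The call was lost without control replicate 2 or 3 or arsenite replicate 1 or 3 (highest edgeR adjusted p = 0.125).

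Bub1, a kinase that marks centromeric chromatin and helps load Mad2l1 at kinetochores, lies on chromosome 2 (127801122 to 127831865). It had 139.9, 130.05 and 161 CPM with arsenite, against 88.7, 48.7 and 66.1 CPM in controls. The arsenite libraries were close together, and the groups did not overlap. Its log2 fold change was 1.08 ± 0.31 (SE), a 2.12-fold level (edgeR adjusted p = 0.0386, with the block 0.0166). The call was lost in each of the 6 fits that left out a library (highest edgeR adjusted p = 0.139), and with the length and GC trend removed.

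Ttk, the kinase that starts checkpoint signalling, lies on chromosome 9 (83834689 to 83872389). It had 369, 219.7 and 264 CPM with arsenite, against 161, 89.1 and 129.9 CPM in controls. Replicate 1 was the highest library of each group, and the groups did not overlap. Arsenite over control gave a log2 fold change of 1.16 ± 0.33 (SE), a 2.24-fold level (edgeR adjusted p = 0.0357, with the block 0.00857). In leave-one-out fits the call was kept only without arsenite replicate 2 (highest edgeR adjusted p of the others 0.15).

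Bub3, the adaptor that carries Bub1 and Bub1b to kinetochores, lies on chromosome 7 (131560222 to 131571895) and went the other way from Bub1. It had 191, 286 and 184 CPM with arsenite, against 349.6, 559 and 341 CPM in controls. Every arsenite library was below every control, and replicate 2 was the highest of both groups. On the log2 scale the fold change was −0.92 ± 0.32 (SE), which did not pass without a covariate (edgeR adjusted p = 0.0696). With the block it was −0.91 ± 0.24 (SE) and passed (edgeR adjusted p = 0.0216), and the within-pair differences were nearly equal, at −0.87, −0.97 and −0.89 on the log2 scale. It also passed with DESeq2 (adjusted p = 0.0284). Without control replicate 2 the log2 fold change was −0.65.

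Bub1b, the checkpoint protein that sits with Mad2l1 and Bub3 on Cdc20, lies on chromosome 2 (118598211 to 118641591). It had 15.5, 27.5 and 16.2 CPM with arsenite, against 57.8, 17.1 and 27.8 CPM in controls. The groups overlapped, and arsenite was lower in 2 of 3 pairs. Control replicate 1 alone was above all other libraries, and without it the log2 fold change was −0.21. Over all 6 libraries it was −0.79 ± 0.48 and did not pass (SE, edgeR adjusted p = 0.272).

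Cdc20, the activator that the checkpoint inhibits, lies on chromosome 4 (118432901 to 118437352). It had 168, 313 and 113 CPM with arsenite, against 340.0, 377 and 266 CPM in controls. Arsenite replicate 2 lay within the control range, while the other arsenite libraries were below it. The log2 fold change was −0.73 ± 0.37 (SE) without a covariate (edgeR adjusted p = 0.195) and −0.84 ± 0.27 (SE) with the block, where it passed (edgeR adjusted p = 0.0474). With the length and GC trend also removed, the blocked value was −0.69 and did not pass (edgeR adjusted p = 0.0944). Within pairs 1, 2 and 3 the differences were −1.01, −0.27 and −1.24 on the log2 scale. Without arsenite replicate 2 the log2 fold change was −1.303 and passed (edgeR adjusted p = 0.0323). Its exons share 53 bases with Elovl1 on the opposite strand, a fatty acid elongase gene at 14.2 to 30.8 CPM with arsenite and 3.05 to 6.98 CPM in controls. A processed pseudogene, Gm7856, matches Cdc20 at 93.7% identity over 1512 bases and was not analysed here. With the strand setting and the treatment of shared reads not given in the sources used here, these limit the Cdc20 value.

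Fzr1, the activator used after anaphase, lies on chromosome 10 (81366222 to 81378516) and had the lowest level per kilobase of exon in both groups. It had 18.9, 10.6 and 19.7 CPM with arsenite, against 5.30, 9.72 and 15.0 CPM in controls. The groups overlapped, although arsenite was higher in each of the 3 pairs, by 1.75, 0.12 and 0.38 on the log2 scale. Neither fit passed, and the difference in log2 units was 0.71 ± 0.52 (SE; adjusted p by edgeR 0.353, with the block 0.263). Without control replicate 1 it was 0.38.

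Pttg1, the securin that holds separase in check until the APC/C destroys it, lies on chromosome 11 (43420250 to 43426251) and had the highest level per kilobase of exon of the 10 in both groups. It had 2295, 502 and 3445 CPM with arsenite, against 826, 767 and 1679 CPM in controls. The arsenite libraries spanned a 6.86-fold range, with replicate 2 below every control and replicates 1 and 3 above every control. The log2 fold change of 0.93 ± 0.58 (SE) did not pass (edgeR adjusted p = 0.278, with the block 0.244). Without arsenite replicate 2 it was 1.296 (edgeR adjusted p = 0.0515), and without arsenite replicate 3 it was 0.36.

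Aurka, the kinase of centrosomes and spindle poles, lies on chromosome 2 (172356190 to 172370535). It had 149, 324 and 82.9 CPM with arsenite, against 330.4, 549 and 258 CPM in controls. The groups overlapped through arsenite replicate 2, yet arsenite was lower in each pair, by −1.15, −0.76 and −1.63 on the log2 scale. The log2 fold change was −1.03 ± 0.47 (SE, edgeR adjusted p = 0.151) without a covariate. It was −1.18 ± 0.27 (SE) with the block and passed (edgeR adjusted p = 0.0122). Without arsenite replicate 2 it was −1.79 (edgeR adjusted p = 0.0263), and without control replicate 2 it was −0.66.

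Aurkb, the passenger complex kinase, lies on chromosome 11 (69045647 to 69051664). It had 24.2, 19.96 and 34.2 CPM with arsenite, against 40.1, 57.1 and 31.95 CPM in controls. Arsenite replicate 3 exceeded control replicate 3, so the groups overlapped. A log2 fold change of −0.72 ± 0.37 (SE) passed in neither fit (edgeR adjusted p = 0.194, with the block 0.178).

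**Figure D2:**
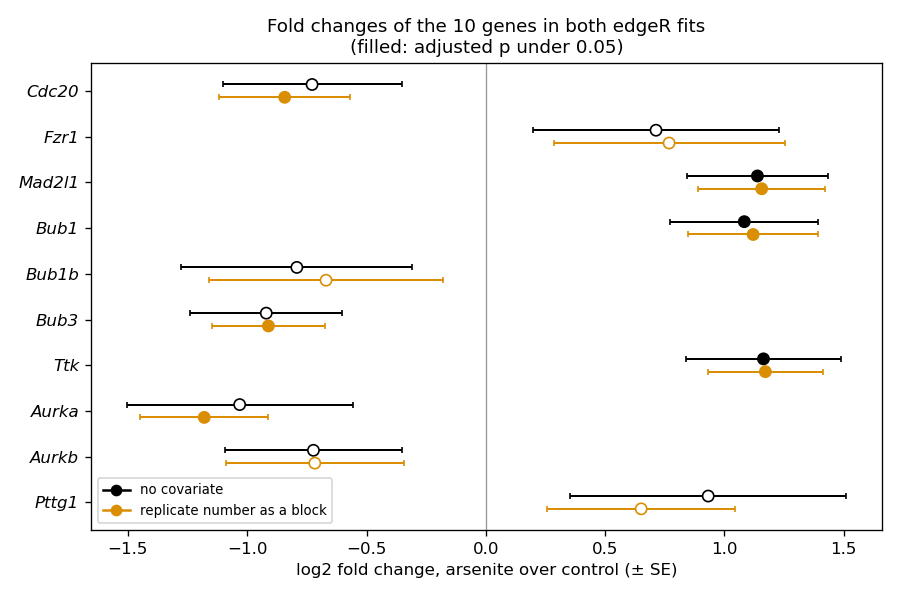
Log2 fold change of each gene, arsenite over control, with its standard error, in the edgeR fit without a covariate (black) and with the replicate number as a block (orange). Filled points had an adjusted p under 0.05. Mad2l1, Bub1 and Ttk are filled in both fits, and of these fits Cdc20, Bub3 and Aurka are filled in the blocked one.

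The 3′ ends of these messages were compared as well, because stored maternal transcripts often carry cytoplasmic polyadenylation elements (CPE), which steer poly(A) tail length, and the libraries were made from poly(A) RNA. The letters TTTTAT or TTTTAAT were searched on the transcript strand in the last 100 bases of 1 coding transcript per gene (GENCODE M21, GRCm38). They were found in Cdc20 and Bub1b at 2 places each and in Aurka and Aurkb at 1, and not in the other 6 genes. Of 21782 coding genes 16.5% held them and 2.44% at 2 places or more. The 30 bases that end at the poly(A) signal are printed for the members with CPE letters beside that signal and, for contrast, for Bub1 and Ttk, with the signal and CPE letters in capitals.
Cdc20: tcttgtTTTTATTTTATtttttctAATAAA
Bub1b: ctctcctttcactgtgtaTTTTATAATAAA
Aurkb: aaattatgaagaacaacaTTTTATAATAAA
Bub1: tactatttatgtatgtttaaaaaaAATAAA
Ttk: gctggaatgttgaagagctctgtaAATAAA

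Of the 4 genes with CPE letters near the annotated end, each had a lower mean with arsenite. Cdc20 and Aurka fell with the block, while Bub1b and Aurkb passed in neither fit. Mad2l1, Bub1 and Ttk, which rose, had none there, and neither did Bub3, which fell with the block. The direction of all other genes with CPE letters was not counted, and a link between these letters and direction was not tested. No poly(A) signal (AATAAA or ATTAAA) was found in the last 40 bases of Aurka, Mad2l1 or Fzr1. The 3′ ends used in these embryos were not measured, and further from the annotated end Mad2l1 has 12 such matches in a 3′ UTR of 6802 bases and Ttk has 2 in one of 318 bases.

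Ratios of genes within a library do not depend on how libraries are scaled. The ratio of Bub1 to Bub1b reads was 8.98, 4.72 and 9.91 with arsenite, against 1.53, 2.84 and 2.37 in controls. Every arsenite library was above every control, and the mean log2 ratio was 2.91 ± 0.58 with arsenite and 1.12 ± 0.46 in controls (SD, n = 3 each, two-sided exact permutation p = 0.1, adjusted p = 0.3 over 3 ratios). An exact p of 0.1 is the smallest that 3 against 3 libraries can give. The ratio of Cdc20 to Fzr1 reads was 8.84, 29.3 and 5.69 with arsenite, against 63.5, 38.6 and 17.7 in controls. Within each of the 3 numbered pairs the ratio was lower with arsenite (exact sign-flip p = 0.25, the smallest that 3 pairs can give). Across pairs, arsenite replicate 2 lay above control replicate 3, so the groups overlapped, with mean log2 ratios of 3.51 ± 1.22 with arsenite and 5.13 ± 0.93 in controls (SD, n = 3 each, two-sided exact permutation p = 0.2, adjusted p = 0.3). The ratio of Aurka to Aurkb reads was 6.15, 16.2 and 2.42 with arsenite, against 8.23, 9.61 and 8.07 in controls. The control libraries were nearly equal and the arsenite libraries lay on either side of them (two-sided exact permutation p = 0.7, adjusted p = 0.7). The difference in mean log2 ratio of −0.47 became 0.21 without arsenite replicate 3. The ratio of Mad2l1 to Cdc20 reads, chosen after its values were seen and not tested, was 8.65, 4.13 and 14.5 with arsenite, against 2.47, 1.55 and 2.11 in controls.

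**Figure D3:**
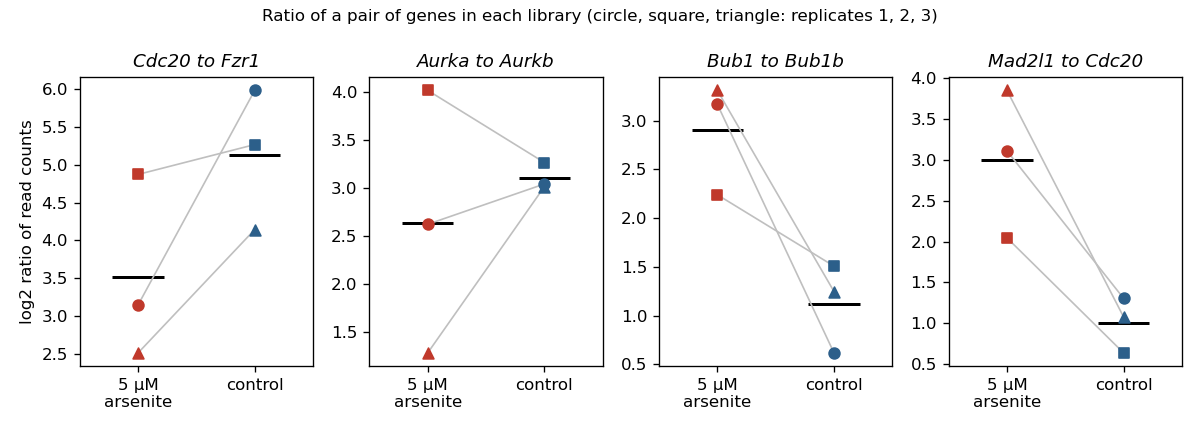
Log2 ratio of read counts of a pair of genes within each library, arsenite left and control right. Points are libraries, grey lines join replicate numbers and black bars are means. For Bub1 to Bub1b and Mad2l1 to Cdc20 the arsenite libraries lie above all controls, while the other ratios overlap.

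Levels of different genes were compared as CPM per kilobase of annotated exon. With arsenite the order was Pttg1 (1040.5), Mad2l1 (174), Cdc20 (106), Aurka (73.2), Ttk (57.8), Bub1 (33.0), Bub3 (31.4), Aurkb (8.86), Bub1b (4.62) and Fzr1 (3.66 CPM per kilobase). In controls it was Pttg1 (545), Cdc20 (175), Aurka (149.8), Mad2l1 (79.0), Bub3 (59.5), Ttk (25.8), Bub1 (15.6), Aurkb (14.6), Bub1b (8.01) and Fzr1 (2.23 CPM per kilobase). By this length Mad2l1, Ttk and Bub1 stood higher in the order with arsenite than in controls, and Cdc20, Aurka and Bub3 lower. The ranges over libraries of neighbours overlapped with arsenite for Mad2l1 with Cdc20, Cdc20 with Aurka, Aurka with Ttk, Bub1 with Bub3 and Bub1b with Fzr1. In controls they overlapped for Cdc20 with Aurka, Mad2l1 with Bub3, Ttk with Bub1, Bub1 with Aurkb and Aurkb with Bub1b. The annotated exons of Mad2l1 cover 8390 bases, so its level per kilobase would be higher if embryos use a shorter 3′ UTR. By the length of 1 coding transcript in place of all annotated exons, Bub3 stood at 99.2 with arsenite and 188 in controls (CPM per kilobase), so its place in the order depends on the length used. By that length Ttk (98.96) also passed Aurka (97.3) with arsenite, and Aurka (199) and Bub3 passed Cdc20 (183) in controls. With arsenite Cdc20 (110) stood above both Bub3 and Aurka, so by transcript length it did not stand lower in the order with arsenite. Aurkb (22.1) passed Bub1 (19.8) in controls by that length. The 10 genes together took 0.456%, 0.327% and 0.525% of counts in arsenite replicates 1, 2 and 3, against 0.296%, 0.350% and 0.341% in control replicates 1, 2 and 3. Pttg1 and Mad2l1 made up 57.4% to 85.3% of that share with arsenite and 44.2% to 66.4% in controls.

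Around the 10 genes, 77 others in 7 lists of the same machinery were examined, of which 76 were tested. Of these 4 rose (5.26%) and 2 fell (2.63%), against 9.43% and 7.26% of all tested genes. Their median log2 fold change was −0.46, against 0.07 for all tested genes, and it was below 0 in every alternative fit (−0.59 to −0.38). With the block 4 rose (5.26%) and 14 fell (18.4%), against 13.4% and 12.6% of all genes.

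Of 16 genes of the kinetochore platform that receives the checkpoint proteins, 3 rose (18.8%, against 9.43% of all tested genes) and 0 fell (median −0.64). They were Zwint, which links the Knl1 scaffold to the RZZ complex, Nuf2, of the microtubule-binding NDC80 complex, and Pmf1, of the MIS12 complex. Zwint had 207, 149.9 and 201 CPM with arsenite, against 65.0, 103 and 50.9 CPM in controls. Its groups did not overlap, and its log2 fold change was 1.35 ± 0.33 (SE, edgeR adjusted p = 0.0232). Nuf2 averaged 267 ± 66.8 CPM with arsenite and 99.5 ± 50.2 CPM in controls (SD, n = 3 each, edgeR adjusted p = 0.0308). Its direct partner Ndc80 averaged 61.1 CPM with arsenite and 105 CPM in controls, and fell with the block, as did Spc25 of the same complex (edgeR adjusted p = 0.0486 and 0.0387). These were the only falls of the list with the block (12.5%, against 12.6% of all tested genes). Zwint lost its call without arsenite replicate 1 or control replicate 1 or 3 (highest edgeR adjusted p = 0.119) and with the length and GC trend removed, and Nuf2 and Pmf1 lost theirs in 4 and 5 of the 6 leave-one-out fits.

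Of 6 inhibitors of the APC/C and factors that silence the checkpoint, 0 rose and 2 fell (33.3%, against 7.26% of all tested genes, median −0.51). Mad2l2, a relative of Mad2l1 that inhibits Fzr1 and also serves in DNA repair, had 73.8, 156 and 107 CPM with arsenite, against 248, 523 and 313 CPM in controls. The groups did not overlap, and the log2 fold change was −1.69 ± 0.38 (SE, edgeR adjusted p = 0.0174). Trip13, the ATPase that unfolds Mad2l1 to take checkpoint complexes apart, averaged 31.8 ± 17.2 CPM with arsenite and 86.2 ± 6.32 CPM in controls (SD, n = 3 each, edgeR adjusted p = 0.0326). Mad2l1bp, the adaptor that Trip13 uses, averaged 696 ± 206 CPM with arsenite and 1634 ± 874 CPM in controls, and did not pass without a covariate (SD, n = 3 each, edgeR adjusted p = 0.0588). It fell with the block (edgeR adjusted p = 0.0167), with DESeq2 (adjusted p = 0.0116) and with limma voom (adjusted p = 0.0450). Mad2l2 lost its call without arsenite replicate 1 or control replicate 2 or 3 (highest edgeR adjusted p = 0.0800), and Trip13 in 5 of 6 leave-one-out fits. Fbxo5 and Fbxo43, the APC/C inhibitors EMI1 and EMI2, had log2 fold changes of 0.36 ± 0.26 and 0.60 ± 0.36 (SE) and did not pass (edgeR adjusted p = 0.362 and 0.261).

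Of the 16 APC/C subunits and E2 enzymes 0 rose and 0 fell by edgeR (median −0.47). With the block 2 fell, Anapc7 and Anapc15 (12.5%, against 12.6% of all tested genes). Anapc15, the subunit needed to release the checkpoint complex, had 239, 257 and 229.5 CPM with arsenite, against 432, 469 and 375 CPM in controls (edgeR adjusted p = 0.0554, with the block 0.0338). Of 7 genes of the passenger complex and shugoshins 0 rose and 0 fell (median −0.59). Aurkc, Haspin and Incenp fell with the block (42.9%, against 12.6% of all tested genes). The Aurkb partner Birc5 (survivin) averaged 561 ± 202 CPM with arsenite and 603 ± 26.5 CPM in controls (SD, n = 3 each, edgeR adjusted p = 0.847). Of 8 Aurora A partners and of 14 tested separase and cohesin genes 0 rose and 0 fell (medians −0.60 and −0.38). The kinase gene Plk1 and the separase gene Espl1 fell with the block (edgeR adjusted p = 0.0333 and 0.0354). They were 12.5% and 7.14% of their lists, against 12.6% of all tested genes. Of 9 genes for APC/C substrates 1 rose (11.1%, against 9.43% of all tested genes) and 0 fell (median −0.24). It was Ccnb2, a B cyclin, with 221, 159 and 207 CPM with arsenite against 82.6, 89.6 and 44.5 CPM in controls. The groups did not overlap, and the difference in log2 units was 1.44 ± 0.33 (SE; adjusted p by edgeR 0.0193). Its call was lost without arsenite replicate 1 or control replicate 1 or 3 (highest edgeR adjusted p = 0.0913). Ccnb1, the main B cyclin, averaged 2830.0 ± 99.5 CPM with arsenite and 2786 ± 588 CPM in controls (SD, n = 3 each, edgeR adjusted p = 0.965).

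**Figure D4:**
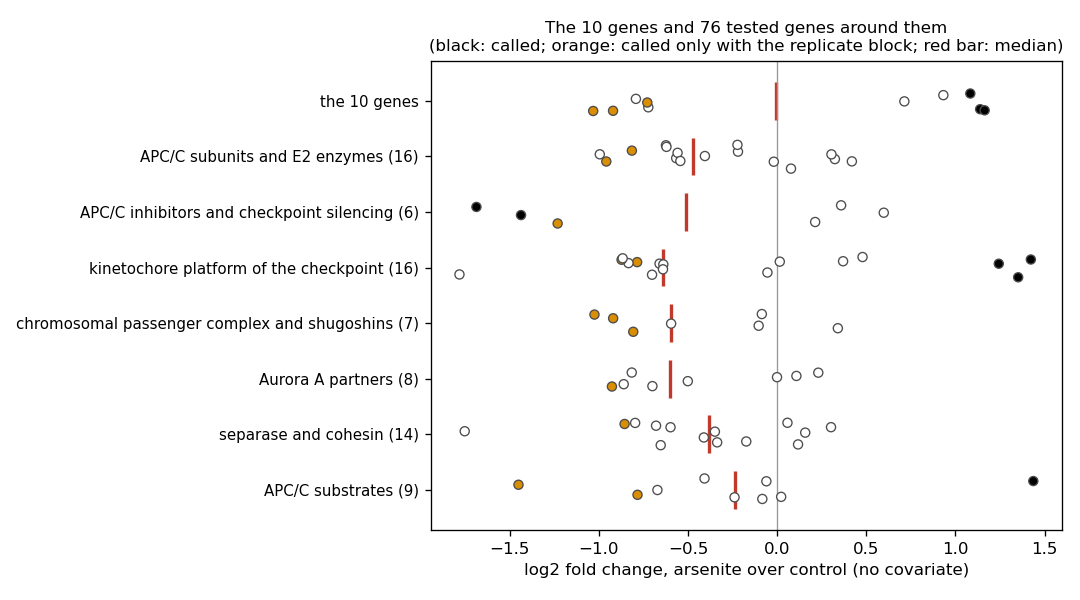
Log2 fold change, arsenite over control without a covariate, of the 10 genes (top line) and of 76 tested genes in 7 lists around them. Black points were called, orange points were called with the replicate block but not without it, and red bars are medians. The 7 list medians lie between −0.64 and −0.24, and that of the 10 genes at 0.00.

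As a description over the 6 libraries, the genes whose log2 CPM followed Mad2l1 most closely were Narf, Tcl1b1 and Tcl1b3 (Pearson r of 0.998, 0.997 and 0.997). Those closest to Fzr1, the member with the largest p, were Fbxl19, Thegl and Mapk10 (Pearson r of 0.992, 0.986 and 0.986). Symbols with a Gm number and Rik clones were left out of this ranking, and such values are the highest among the other tested genes. Fbxl19 had 0.120, 0.782 and 3.05 CPM in control replicates 1, 2 and 3, so few reads lie behind its value.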

How the data were processed

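Poly(A) RNA of 2-cell embryos was measured in 3 arsenite and 3 control libraries, grouped by the labels. The deposited values are raw read counts per gene symbol, 1 column for each library. Named in the submitters' processing notes, with no roles, are featureCounts 1.6.2, STAR, DESeq2 1.30.1, StringTie 2.1.4 and the build mm10. The strand setting and annotation behind the counts are not given by the sources used here. Per the labels' protocols, which describe a pair of library kits, cDNA was amplified by PCR, and molecular identifiers are not mentioned, so counting limits cover counting error only. Of 18660 rows 11 had a date in place of a symbol (0.0432% to 0.0818% of counts) and were left out.

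R 4.3.3 was used. The test was the two-sided quasi-likelihood F-test of edgeR 4.0.16 on counts, with no covariate, after filterByExpr and TMM scaling, with p adjusted over 12582 genes by Benjamini-Hochberg. Standard errors come from the F statistic. DESeq2 1.42.0 and limma 3.58.1 (voom) were alternatives. The fits were also run on simulated data, with unpaired libraries and larger changes than those of the members. That check does not show their power at the member fold changes. Ratios use counts plus 0.5. Every pair of replicates differed beyond sampling noise (chi-square per degree of freedom at least 31.8). Deviations from group means correlated, across genes, at 0.189, 0.221 and 0.178 for libraries with the same replicate number. For the others the values were −0.164 to −0.0238. Deviations within a group sum to 0, so positive values for the first kind push the others below 0. The negative values are therefore no separate support, and with 3 libraries in each group few other matchings exist. A second fit took the replicate number as a block. What libraries with the same number have in common is not stated in the labels. The members, the lists and the rule for named genes (all 10 members, and the called gene with the smallest p in each direction of each list) were chosen with earlier results of these data known. Other genes are named after their values were seen. Processed pseudogenes with at least 90% identity over at least 200 bases exist for Cdc20, Bub3 and Mad2l1, so reads of these genes may be shared.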

Additional observations from a re-analysis of the deposited data

How the results depend on the processing

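Over 17 alternative settings the log2 fold change of each of the 10 genes kept its direction, in 170 of 170 values. Mad2l1, Bub1 and Ttk were called in 13, 9 and 12 of these settings, Bub3, Aurka and Cdc20 in 5, 3 and 2, and Fzr1, Bub1b, Aurkb and Pttg1 in 0. Members called lower numbered 0 without a covariate, 3 with the replicate block, 1 with DESeq2, 1 with the length and GC trend removed and 2 with that and the block, a setting added after the data were seen. Leaving out a library gave 0 to 2 members higher and 0 to 3 lower. Of the other 76 genes 2 were lower without a covariate, 14 with the block, 12 with DESeq2, 6 with limma voom, 7 with scaling by library size only, 16 with the length and GC trend removed and 26 with that and the block. Over all tested genes the shares lower in these fits, in the same order, were 7.26%, 12.6%, 12.5%, 8.63%, 8.5%, 11.5% and 15.8%. Leaving out a library gave 0 to 4 of them higher and 0 to 6 lower. The Aurka to Aurkb difference ranged from −1.16 to 0.21 over libraries left out, with the reversed value without arsenite replicate 3. The difference for Cdc20 to Fzr1 ranged from −2.31 to −1.13 and for Bub1 to Bub1b from 1.53 to 2.11. Pairing by number cannot change the mean differences (−1.62, −0.47 and 1.78), because the mean over pairs equals the difference of group means by arithmetic. With 3 pairs no exact sign-flip p below 0.25 is possible. The cause of these shifts was not tested. Standard errors of the members lay between 0.29 and 0.58 on the log2 scale, the highest for Pttg1.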

Other observations

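Several members varied together within groups. Replicate 2 was the highest library of its group for Cdc20, Aurka and Bub3 and the lowest for Pttg1, with arsenite and in controls alike. In arsenite replicate 2 Dppa3, an abundant maternal transcript, stood at 1999 CPM, against 6094 and 10576 CPM in arsenite replicates 1 and 3 and 5459.7 to 9950.3 CPM in controls. The part of this library in the Cdc20, Aurka and Pttg1 values is given beside each gene by the fits without it.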
